A study of Mus musculus with 2 samples.

Results

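Genes that encode chromatin remodellers and enzymes that write or erase histone and DNA marks were compared between 2 RNA-seq libraries of GFP-positive cells of the embryonic mouse cortex, labelled as neural stem cells. Members were taken by their symbol from the deposited gene table (the Kmt2, Kmt5, Kdm, Chd, Smarc, Arid, Hdac, Kat, Setd, Tet and Dnmt families with Ezh1, Ezh2, Suz12 and Eed), and they needed a mean level of 1 RPKM or more over both libraries. RPKM is a read count divided by gene length and by library depth. Such a name was carried by 92 of the 16103 listed genes. Of these 90 passed the level, out of 13988 genes that passed it in all. Both libraries came from the warm condition, from ICR mice, an outbred stock. Plasmids were electroporated in utero at embryonic day 13, and GFP-positive cells were sorted at embryonic day 15. The Control library received a control plasmid and the TRPM2-KD library a Trpm2 knockdown plasmid, named TRPM2-sh1 in the column header. The sources used here give neither the number of embryos behind a library nor the temperature. With 1 library per group and 1 knockdown construct, the difference between conditions cannot be told apart from that between these libraries or from effects of the construct, and no test of the conditions was possible.

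DNA in the nucleus is wrapped around histones. Methyltransferases and acetyltransferases place marks on histone tails, demethylases and deacetylases remove them, and ATP-driven remodellers slide or eject nucleosomes. In the embryonic cortex these machineries are known to take part in the timing of progenitor division and neuron production. In particular, PRC2 with its subunit Ezh2 restrains neuronal genes in progenitors, and subunits of the BAF remodelling complex are exchanged as progenitors become neurons.

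Total counts were 26209192 reads in Control and 20791236 in TRPM2-KD. Trpm2 (ENSMUSG00000009292.11), the targeted gene and a warmth-sensitive calcium-permeable channel, was at 0.745 RPKM in Control (241 reads) and 0.604 RPKM in TRPM2-KD (155 reads). Its ratio of TRPM2-KD over Control was 0.811, with a counting interval from 0.658 to 0.996. A counting interval here is the exact conditional binomial 95% interval of the read counts. It covers counting error only, and reads made by PCR are not independent molecules. Although the cells are labelled as neural stem cells, both libraries held abundant neuronal transcripts. Tubb3, a neuronal tubulin, was at 743 RPKM in Control and Neurod6 at 255 RPKM, beside the progenitor genes Sox2 at 64.4 and Pax6 at 5.57 RPKM. Markers of several cell types differed between the libraries. For microglia and macrophages 14 of 15 tested markers were above a ratio of 1, and the summed level of all 16 listed markers was 192 RPKM in Control and 286 RPKM in TRPM2-KD. Neuronal markers were below 1 for 9 of 12, with summed levels of 1934 and 1754 RPKM. Radial glia markers were above 1 for 10 of 14, though only 6 intervals lay above 1 and 2 lay below, with sums of 709 and 767 RPKM, and endothelial markers were below 1 for 7 of 9, with sums of 139.6 and 118 RPKM. Markers of meningeal fibroblasts were below 1 for 6 of 7, with sums of 83.7 and 65.2 RPKM, intermediate progenitor markers were below 1 for 5 of 7, with sums of 272 and 267 RPKM, and erythroid markers were split 3 to 3, with sums of 73.3 and 87.7 RPKM. Among tested markers the globin gene Hbb-bt differed most, with 3 reads in the Control library and 166 in the other, a ratio of 69.7 (23.5 to 342). Hbb-bt closely resembles Hbb-bs, so its reads are uncertain. None of these markers was at 0 reads in either library, and their part in the results below was not tested. In such bulk samples fewer cells of a type and less RNA per cell cannot be told apart.

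The chromatin genes as a group were close to equal in the 2 libraries. They took 1.53% of the Control library and 1.59% of the TRPM2-KD library, and their summed level was 2152 RPKM in Control and 2178 RPKM in TRPM2-KD. No member was 2-fold or more higher or lower, against 0.915% and 0.686% of all 13988 genes. On the scale of log2(RPKM + 1), which understates the change of genes with low RPKM, 2 of 90 members were higher in TRPM2-KD by 25% or more, against 10.3% of all genes. These were Arid5b and Hdac4. The only one lower by 20% or more, the same fold downward, against 9.59% of all genes, was a second line of the table that also bears the symbol Hdac4. Small differences beyond counting error were frequent at this depth, with a median of 3280.5 reads per member for Control and 2648 for TRPM2-KD. Over all genes these medians were lower, at 801 and 641 reads. Counting error is larger at fewer reads, so the shares of members and of all genes given here were not compared at equal depth. The counting interval lay above 1 for 40 members (44.4%), against 28% of all genes, and below 1 for 19 members (21.1%), against 28.5% of all genes. The median log2 ratio of the members was 0.038, with 56 above 0 and 34 below, and that of all genes was -0.0040, with 49.3% of genes above 0. In the authors' deposited table no member passed the study's own thresholds (p below 0.05 with more than 1 log2 unit either way), against 1.56% of all genes. The authors' log2 fold changes of the members ran from -0.504 to 0.751, so the fold threshold alone left no member to pass. With 1 library per group, the authors' p-values could not draw on variation between libraries of the same group.

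**Figure D1:**
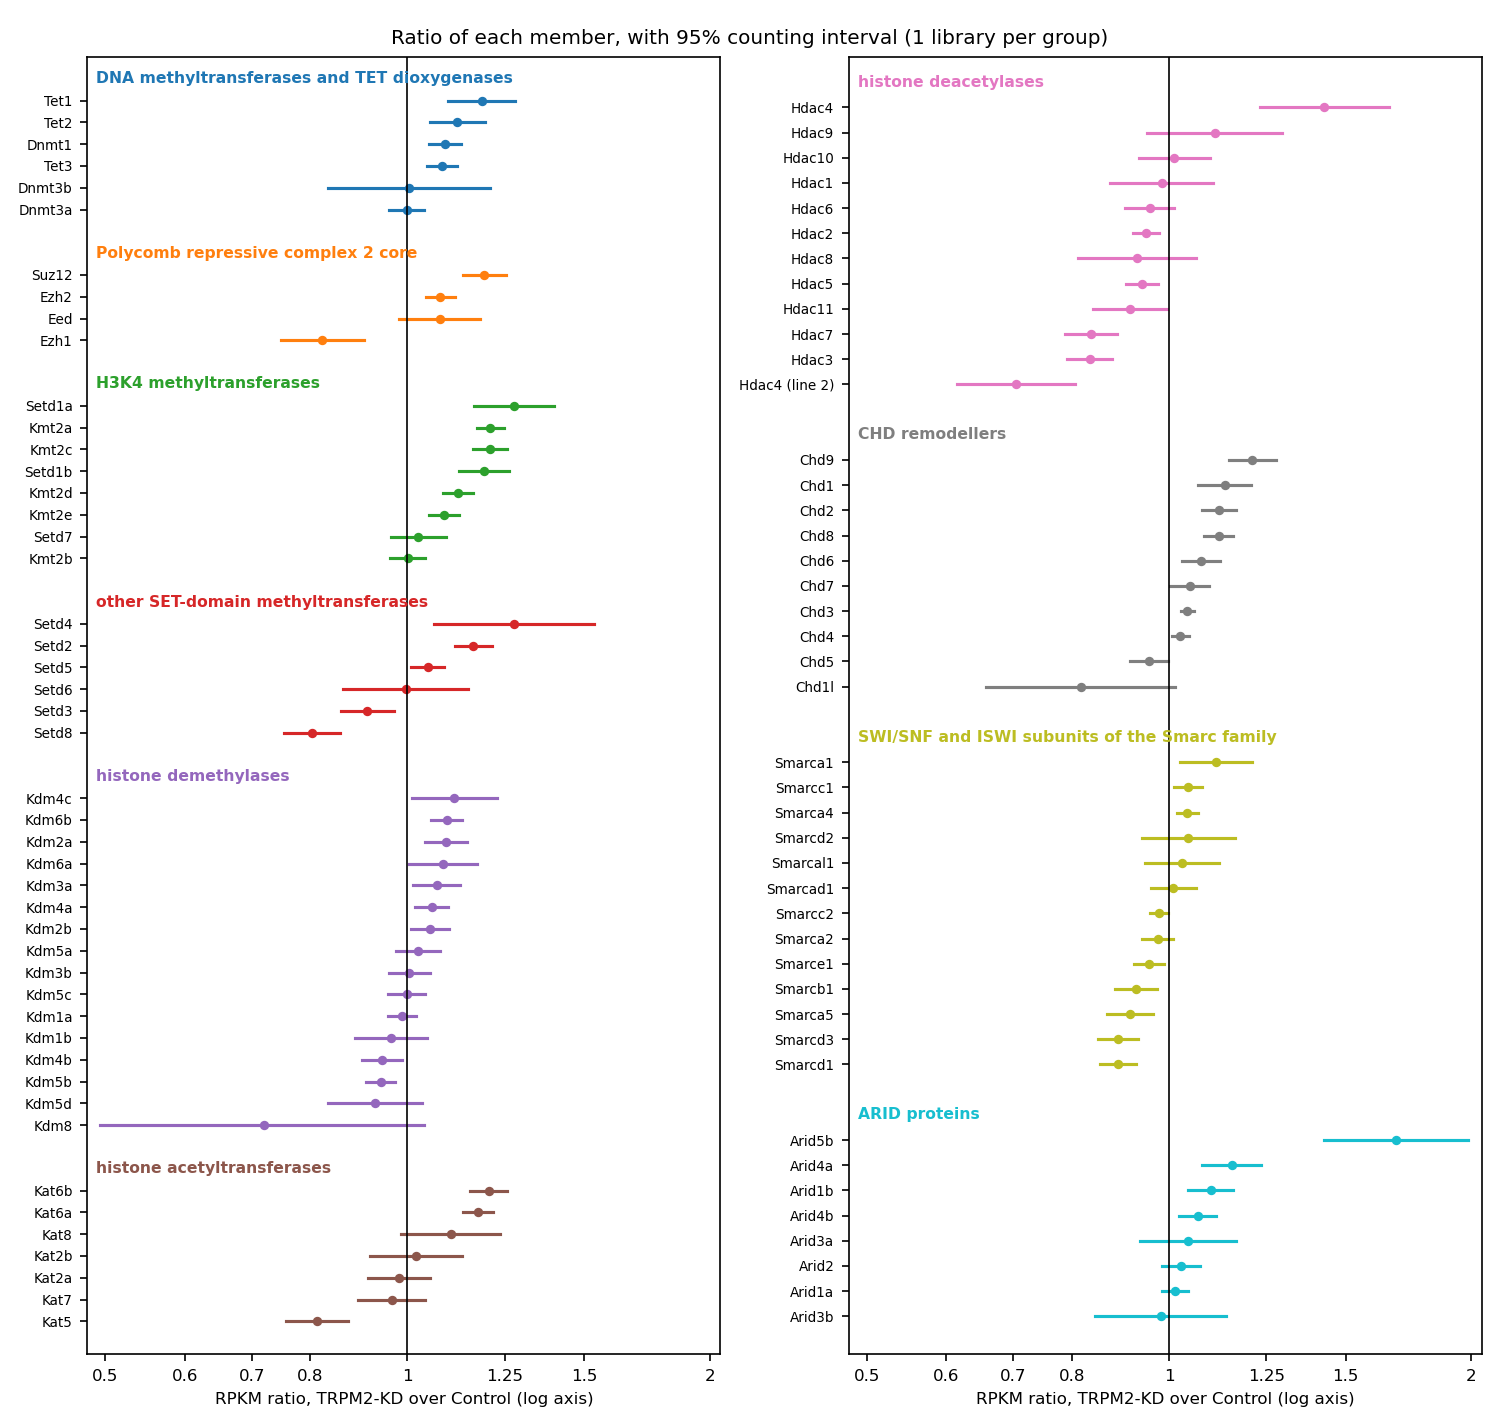
Ratio of RPKM in TRPM2-KD over Control (horizontal log axis) for each of the 90 members, by role, with bars for the 95% counting interval. Most members lie close to 1, and Arid5b at 1.68 and the line Hdac4 at 1.43 stand highest, and the second Hdac4 line at 0.705 lowest.

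Gene length moved with these differences. The lengths implied by the deposited RPKM had a median of 6569 bp over the members and 3494 bp over all genes, and ratios were higher for longer genes. Across members, which are not independent replicates, the Spearman correlation of the log2 ratio with length was 0.43, and it was 0.15 across all genes. The 30 members in the longest of 10 equal groups of genes by length (from 8089 bp) had a median log2 ratio of 0.11, with 27 above 0, while all 1399 genes of that group had a median of 0.075 with 69.5% above 0. The 45 members longer than the median member were above 0 in 34 cases, with a median log2 ratio of 0.070, whereas of the 45 others 22 were above and 23 below (median -0.0047). When the median of all genes in the same length group was subtracted, the members were split 46 above 0 and 44 below, in place of 56 and 34, and their median log2 ratio was 0.0044. With GC content the Spearman correlation was -0.22 across members and -0.19 across all genes. The part of length or GC content in any single ratio was not tested.

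**Figure D2:**
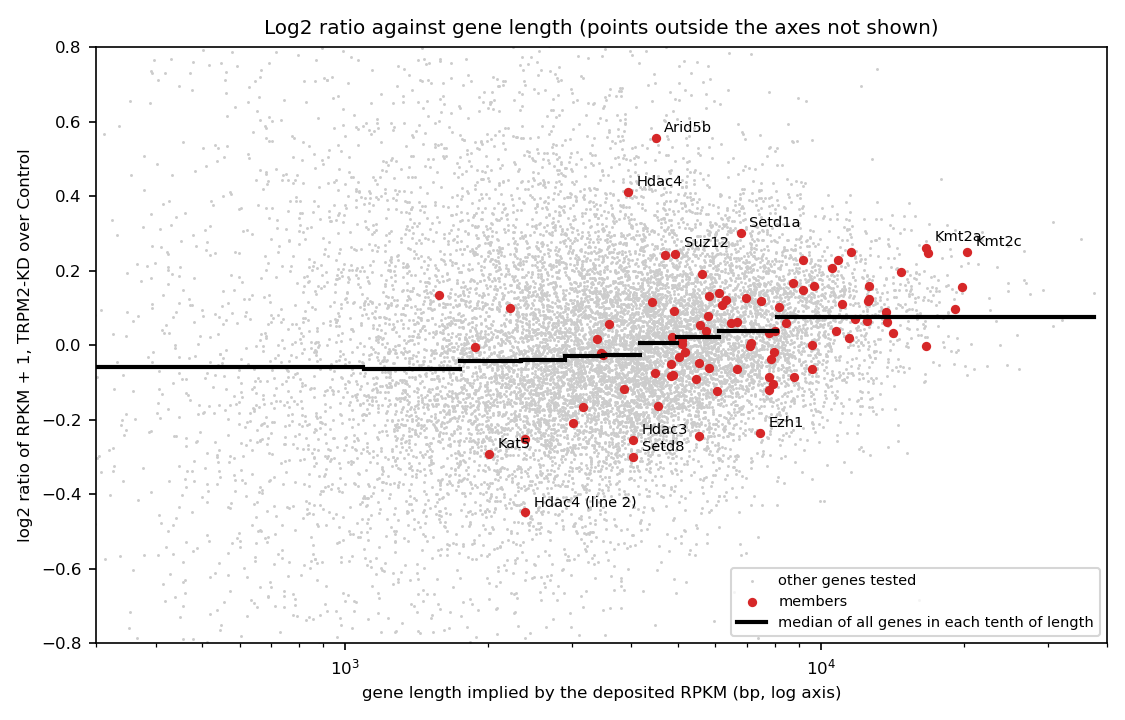
Log2 ratio of RPKM + 1 in TRPM2-KD over Control (vertical axis) against gene length in bp (horizontal log axis), with members in red, other genes in grey and black bars for the median of all genes in each of 10 equal length groups. The black bar is at -0.060 in the shortest group and at 0.075 in the longest, and the longest members lie mostly above 0.

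Methyltransferases of histone H3 lysine 4, a mark of active promoters and enhancers, were the role group with the highest median. None of the 8 was lower in TRPM2-KD, 6 counting intervals lay above 1, and the median log2 ratio was 0.19. Setd1a (ENSMUSG00000042308.8), a catalytic subunit of the COMPASS complex, was at 5.28 RPKM in Control (941 reads) and 6.74 RPKM in TRPM2-KD (953 reads), a ratio of 1.28 (1.17 to 1.40). Its close relative Setd1b was at 8.35 and 9.95 RPKM, a ratio of 1.19 (1.13 to 1.26). Kmt2a (ENSMUSG00000002028.6), the trithorax homologue known as MLL, was at 19.0 RPKM (8318 reads) in Control and 23.0 RPKM (7979 reads) in TRPM2-KD, a ratio of 1.21 (1.17 to 1.247). All of these were thus somewhat higher in TRPM2-KD, as were the enhancer methyltransferases. Kmt2c was at 10.1 and 12.2 RPKM, a ratio of 1.21 (1.16 to 1.26), and Kmt2d was at 13.6 and 15.2 RPKM, a ratio of 1.12 (1.09 to 1.16). Kmt2e, the most abundant of the group, whose SET domain has no established activity, was at 37.1 and 40.4 RPKM, a ratio of 1.09 (1.05 to 1.13). The remaining pair did not differ beyond counting error. Kmt2b was at 21.0 RPKM in both libraries, with a ratio of 1.00 (0.960 to 1.04), and Setd7, which adds a single methyl group, was at 10.5 and 10.8 RPKM, a ratio of 1.03 (0.962 to 1.09). These are long genes, with a median of 10248 bp. Less the median of their length groups, 6 of the 8 were above 0 while Kmt2b and Setd7 were below it, and the group median was 0.12. The PRC2 core was close to that, with a median of 0.11 less the length medians. In the GENCODE M21 annotation 52.3% of the exonic bases of Setd1a are shared with another gene model, Gm49388, so its reads are uncertain. Without Setd1a the group median, not centred by length, was 0.16.

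Promoters of the 3 H3K4 methyltransferases with the highest ratios are shown because these genes lay on the same side in the comparison. Each window of 300 bases spans the start of the gene in RefSeq on GRCm38.p6, a later build than mm9, and is written in the direction of transcription.
Setd1a, chr7:127777139-127777438, plus strand: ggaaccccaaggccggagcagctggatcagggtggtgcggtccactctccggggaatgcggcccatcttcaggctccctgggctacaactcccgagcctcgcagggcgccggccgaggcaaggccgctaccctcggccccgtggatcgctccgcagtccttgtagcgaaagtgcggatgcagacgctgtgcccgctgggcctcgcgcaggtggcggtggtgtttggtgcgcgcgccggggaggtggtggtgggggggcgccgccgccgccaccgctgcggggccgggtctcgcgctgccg
Kmt2a, chr9:44881240-44881539, minus strand: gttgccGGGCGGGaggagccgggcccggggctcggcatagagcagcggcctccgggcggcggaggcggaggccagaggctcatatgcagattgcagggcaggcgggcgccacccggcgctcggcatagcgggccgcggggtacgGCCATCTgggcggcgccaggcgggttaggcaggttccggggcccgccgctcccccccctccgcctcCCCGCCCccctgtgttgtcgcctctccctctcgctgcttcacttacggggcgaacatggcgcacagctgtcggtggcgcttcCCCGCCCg
Kmt2c, chr5:25498734-25499033, minus strand: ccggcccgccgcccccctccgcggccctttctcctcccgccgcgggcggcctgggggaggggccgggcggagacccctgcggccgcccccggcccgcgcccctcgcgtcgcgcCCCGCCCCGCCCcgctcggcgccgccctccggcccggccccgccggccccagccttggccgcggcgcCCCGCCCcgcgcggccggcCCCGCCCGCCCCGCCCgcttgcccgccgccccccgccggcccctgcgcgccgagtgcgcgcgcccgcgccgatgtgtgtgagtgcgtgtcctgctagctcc
Capitals mark matches on either strand to GGGCGGG (SP/KLF factors), and in Kmt2a also to AGATGGC (YY1). Kmt2a holds 3 SP/KLF matches and 1 YY1 match, Kmt2c holds 6 SP/KLF matches, some of which overlap one another, and Setd1a holds none. All 3 are rich in CG pairs, with 35 in Setd1a, 36 in Kmt2a and 56 in Kmt2c. RefSeq promoters were matched for 69 member genes, 96 windows in all. Their median was 24 CG pairs per window, against 7 over all 32851 windows of the table, which also holds noncoding genes. An SP/KLF match was in 49% of member windows and 25.6% of all windows. The other motifs searched on both strands were CCGGAAG (ETS, 10.4% of member windows and 8.86% of all), GCATGCG (NRF1, 8.33% and 3.58%), TTCCCGC (E2F, 4.17% and 4.6%), AGATGGC (YY1, 3.12% and 6.4%) and TATAAA (a core promoter box, 5.21% and 13.6%). CTTTGAT, a form of the site of TCF/LEF factors, the partners of beta-catenin, was in 1.04% of member windows and 3.73% of all. A match is a description of letters, not a binding site.

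The Polycomb repressive complex 2 core was split between its alternative catalytic subunits. Ezh2 (ENSMUSG00000029687.10), the methyltransferase of histone H3 lysine 27 in dividing cells, was at 44.4 RPKM (7219 reads) in Control and 47.9 RPKM (6178 reads) in TRPM2-KD, a ratio of 1.08 (1.04 to 1.12). Ezh1 (ENSMUSG00000006920.8), its paralogue that prevails in non-dividing cells, was at 5.73 RPKM (1118 reads) and 4.71 RPKM (730 reads), a ratio of 0.823 (0.749 to 0.904). Ezh2 thus exceeded Ezh1 by 7.75-fold in Control and by 10.2-fold in TRPM2-KD. That quotient was 1.31 times as large in TRPM2-KD, with an approximate 95% counting interval from 1.19 to 1.45. Suz12 (ENSMUSG00000017548.9), a scaffold subunit, was at 24.5 RPKM (3181 reads) and 29.2 RPKM (3011 reads), a ratio of 1.19 (1.13 to 1.255). Eed, which binds the methyl mark, was at 16.7 and 18.0 RPKM, with a ratio of 1.08 and an interval from 0.980 to 1.18 that spans 1. Less the median of its length group, Suz12 stood at a log2 ratio of 0.24, against 0.25 without that step, and Ezh1 at -0.27, against -0.24.

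The promoters of Ezh1, Ezh2 and Suz12 are shown because these subunits of the same complex differed in direction. The source, build and window are as above.
Ezh1, chr11:101226414-101226713, minus strand: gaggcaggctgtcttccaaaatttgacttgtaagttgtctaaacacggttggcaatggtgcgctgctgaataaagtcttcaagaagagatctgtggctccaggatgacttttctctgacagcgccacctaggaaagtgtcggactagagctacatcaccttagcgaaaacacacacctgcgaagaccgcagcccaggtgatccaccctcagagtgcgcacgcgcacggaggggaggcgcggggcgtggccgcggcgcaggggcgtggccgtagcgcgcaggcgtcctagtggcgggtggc
Ezh2, chr6:47594981-47595280, minus strand: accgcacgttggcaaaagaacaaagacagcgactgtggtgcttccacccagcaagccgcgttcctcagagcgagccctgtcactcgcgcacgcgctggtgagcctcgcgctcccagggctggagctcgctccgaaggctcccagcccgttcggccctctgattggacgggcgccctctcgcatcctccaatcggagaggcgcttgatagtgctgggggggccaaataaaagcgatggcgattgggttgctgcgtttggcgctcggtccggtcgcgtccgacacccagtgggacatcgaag
Suz12, chr11:79992856-79993155, plus strand: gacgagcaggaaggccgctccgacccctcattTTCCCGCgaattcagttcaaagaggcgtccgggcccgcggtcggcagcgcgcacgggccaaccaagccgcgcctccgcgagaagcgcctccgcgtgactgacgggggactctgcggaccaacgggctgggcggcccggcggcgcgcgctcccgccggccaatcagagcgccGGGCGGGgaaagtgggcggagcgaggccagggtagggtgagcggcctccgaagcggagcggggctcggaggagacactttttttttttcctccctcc
Capitals mark in Suz12 a match to TTCCCGC (E2F) and a match to GGGCGGG (SP/KLF). Neither Ezh1 nor Ezh2 holds a match to any of the 7 motifs in this window. The windows contain 23 CG pairs in Ezh1, 31 in Ezh2 and 41 in Suz12.

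Enzymes of DNA methylation were level or slightly higher in TRPM2-KD, with 4 of 6 counting intervals above 1 and none below. Dnmt1, the maintenance methyltransferase that copies the pattern after replication, was at 37.5 RPKM in Control and 40.9 RPKM in TRPM2-KD, a ratio of 1.09 (1.05 to 1.13). The de novo methyltransferases did not differ beyond counting error. Dnmt3a was at 12.4 RPKM in both, with a ratio of 0.999 (0.959 to 1.04), and Dnmt3b, with only 265 and 211 reads, was at 1.98 and 1.99 RPKM, a ratio of 1.00 (0.834 to 1.21). All TET dioxygenases, which oxidise methylcytosine, were slightly higher. Tet1 was at 3.55 and 4.21 RPKM, a ratio of 1.19 (1.10 to 1.28), Tet2 at 8.66 and 9.71 RPKM, a ratio of 1.12 (1.05 to 1.19), and Tet3 at 24.5 and 26.6 RPKM, a ratio of 1.08 (1.05 to 1.12). Tet3 was the most abundant TET gene in both libraries. The group median log2 ratio of 0.12 became 0.054 less the length medians.

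**Figure D3:**
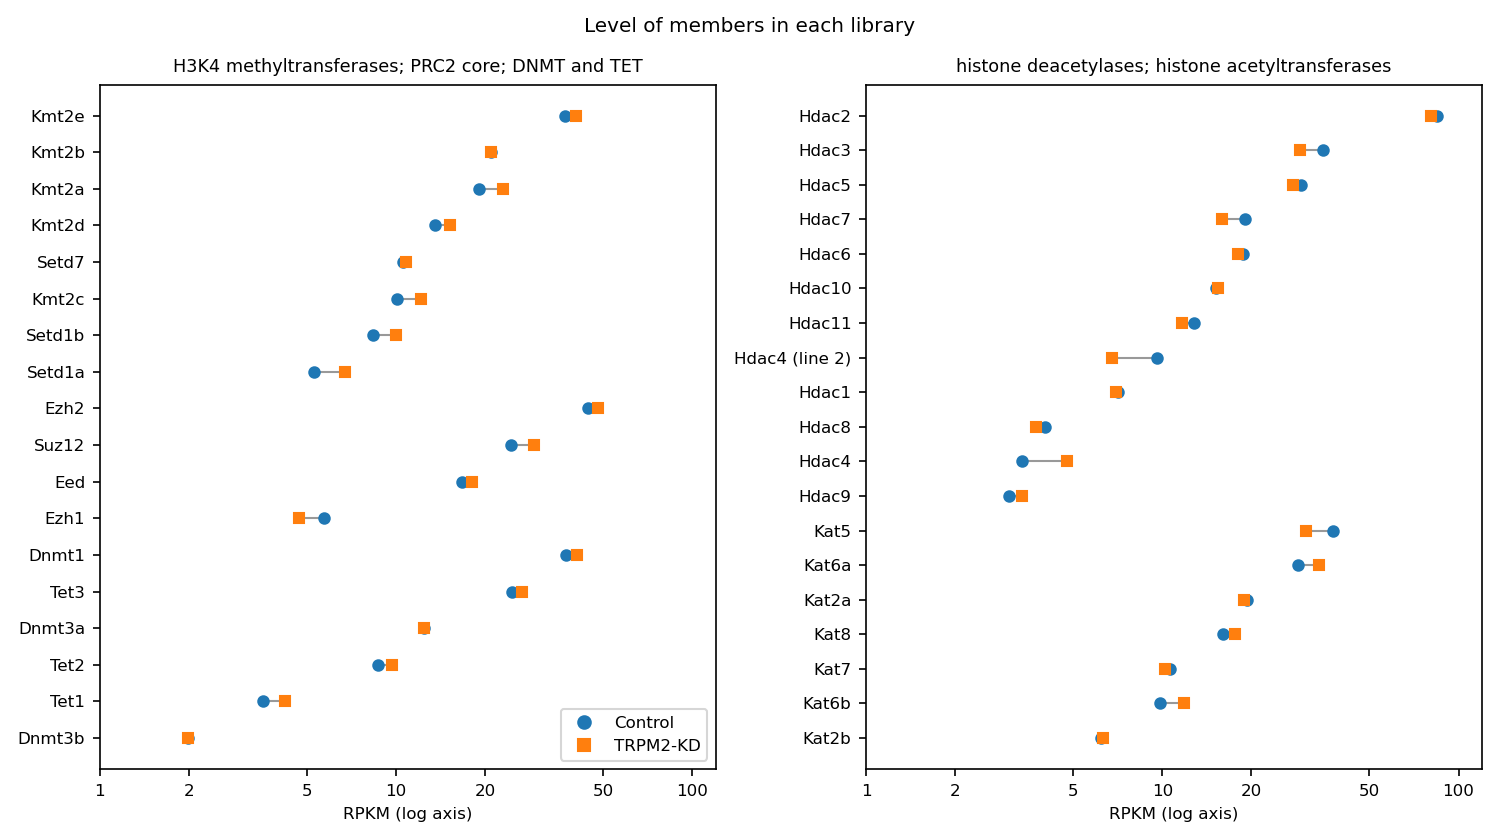
Level in RPKM (horizontal log axis) of H3K4 methyltransferases, PRC2 core, DNA methylation enzymes, deacetylases and acetyltransferases in Control (circles) and TRPM2-KD (squares), 1 library each. The widest gaps are those of the Hdac4 lines, with smaller gaps for Setd1a, Kat5, Ezh1, Kmt2a, Kmt2c, Kat6b, Hdac3, Hdac7 and Suz12, among others.

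Other SET-domain methyltransferases went both ways, 3 intervals above 1 and 2 below out of 6. Setd2, which trimethylates histone H3 lysine 36 along transcribed genes, was at 16.3 RPKM in Control and 19.0 RPKM in TRPM2-KD, a ratio of 1.16 (1.11 to 1.21). Setd8 (ENSMUSG00000049327.11), also known as Kmt5a, the methyltransferase of histone H4 lysine 20 needed for cell division, was at 22.9 RPKM (2427 reads) and 18.4 RPKM (1547 reads), a ratio of 0.803 (0.753 to 0.857). Setd8 had the lowest ratio of this group, and Setd4 the highest on few reads. Setd4 had 238 and 241 reads, at 1.93 and 2.46 RPKM, a ratio of 1.28 (1.06 to 1.53). Setd5 was at a ratio of 1.05 (1.01 to 1.09), but its log2 ratio was -0.011 less its length median. Setd3, an actin methyltransferase with near copies among pseudogenes, was at 0.912 (0.858 to 0.970), and Setd6 was at 0.996 with an interval that spans 1.

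Histone demethylases went both ways. Of 16 genes 7 (43.75%) had an interval above 1, against 28% of all genes, and 2 (12.5%) had one below, against 28.5%. The other 7 spanned 1, and these shares were not compared at equal depth. The median log2 ratio of the demethylases was 0.019, or -0.035 less the length medians. The erasers of histone H3 lysine 27 methylation were both slightly higher. Kdm6b was at 35.2 RPKM in Control and 38.5 RPKM in TRPM2-KD, a ratio of 1.09 (1.06 to 1.13), and Kdm6a, an X-linked gene, was at 6.57 and 7.13 RPKM, a ratio of 1.09 (1.00 to 1.17). Among erasers of lysine 4 methylation, none was higher beyond counting error. Kdm1a, the most abundant demethylase and a partner of the CoREST complex, was at 64.1 and 63.3 RPKM, a ratio of 0.988 (0.957 to 1.02), and its relative Kdm1b was at 0.963 (0.886 to 1.05). Kdm5b was lower, at 40.1 and 37.7 RPKM, a ratio of 0.941 (0.910 to 0.973). Kdm5a at 1.02 and Kdm5c at 0.998 had intervals that span 1, as had the Y-linked Kdm5d, at 5.64 and 5.23 RPKM and a ratio of 0.929 (0.834 to 1.03). The quotient of Kdm5c over Kdm5d, an X-linked and a Y-linked copy, was 4.69 in Control and 5.04 in TRPM2-KD, which did not differ beyond counting error (0.959 to 1.20 for the ratio of the quotients).

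Demethylases of lysines 9 and 36 differed by little. Kdm4c was at a ratio of 1.11 (1.01 to 1.23) and Kdm4a at 1.06 (1.02 to 1.10), but Kdm4b was at 0.944 (0.901 to 0.988), a direction that turned when ratios were centred by GC content (log2 ratio 0.010). Kdm3a was at 1.07 (1.01 to 1.13) and Kdm3b, which shares 24.6% of its exonic bases with a lincRNA model, at 1.00 (0.958 to 1.05). Kdm2a was at 1.09 (1.04 to 1.15) and Kdm2b at 1.05 (1.01 to 1.10), where Kdm2b turned to a log2 ratio of -0.0047 less its length median. Kdm8, at the edge of the level required, had 84 and 48 reads, 1.34 RPKM in Control and 0.967 RPKM in TRPM2-KD, and a ratio of 0.720 with an interval from 0.494 to 1.04. It passed only through its Control level. The next lowest members were Arid3b at a mean of 1.90 RPKM and Dnmt3b at 1.98 RPKM. Just outside were Arid5a, at a mean of 0.633 RPKM, and Arid3c, at 0.315 RPKM.

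Histone acetyltransferases went apart. The paralogues Kat6a and Kat6b, which acetylate histone H3, were both higher. Kat6a was at 28.7 RPKM in Control (6920 reads) and 33.8 RPKM in TRPM2-KD (6459 reads), a ratio of 1.18 (1.14 to 1.22). Kat6b was at 9.82 and 11.8 RPKM, a ratio of 1.20 (1.15 to 1.26). Kat5 (ENSMUSG00000024926.9), the catalytic subunit of the NuA4/TIP60 complex, was lower, at 37.6 RPKM (1982 reads) and 30.5 RPKM (1277 reads), a ratio of 0.812 (0.756 to 0.872). Kat5 shares 12.1% of its exonic bases with the antisense gene Rnaseh2c, which was at a ratio of 0.856, and without a known strand setting their reads cannot be told apart there. The other 4 had intervals that span 1. Kat8, the main acetyltransferase of histone H4 lysine 16, was at 1.10 (0.986 to 1.24), Kat7 at 0.964 (0.893 to 1.04), Kat2a at 0.981 (0.914 to 1.05) and Kat2b, which has a pseudogene copy, at 1.02 (0.917 to 1.13).

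Histone deacetylases were the role group with the lowest median, with 6 of 12 intervals below 1, 1 above and a median log2 ratio of -0.079. That median was -0.085 less the length medians. It was nearer to 0 when centred by GC content (-0.031) or by length and GC content together (-0.040). The second Hdac4 line has no GC value and is not in the latter 2 medians. All class I enzymes had a ratio below 1, and for Hdac2 and Hdac3 the interval lay below it too. Hdac3 (ENSMUSG00000024454.9), the catalytic subunit of the NCoR and SMRT co-repressor complexes, was at 34.9 RPKM (3684 reads) in Control and 29.1 RPKM (2437 reads) in TRPM2-KD, a ratio of 0.834 (0.792 to 0.878). Hdac2, the most abundant deacetylase gene and a subunit of the Sin3 and NuRD complexes, was at 84.8 and 80.5 RPKM, a ratio of 0.949 (0.920 to 0.978). Its partner Hdac1 was listed at only 7.09 and 6.97 RPKM, a ratio of 0.983 (0.873 to 1.11). Reads of Hdac1 are uncertain, because a processed pseudogene, Gm10093, matches 70.9% of its longest transcript at 99.4% identity and was itself counted with 158 and 145 reads. Hdac8 was at 0.930 (0.812 to 1.06).

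Class IIa deacetylases, which shuttle between nucleus and cytoplasm under calcium-dependent kinases, went both ways. Hdac7 (ENSMUSG00000022475.12), known from endothelial cells and thymocytes, was at 19.0 RPKM (2763 reads) and 15.9 RPKM (1835 reads), a ratio of 0.837 (0.789 to 0.888). The cells were sorted for GFP after electroporation, a gate that should remove endothelial cells, yet endothelial markers were detected in both libraries and 7 of 9 were lower in TRPM2-KD. Their part in the ratio of Hdac7 was not tested. Hdac5 was at 29.3 and 27.6 RPKM, a ratio of 0.940 (0.906 to 0.975), and Hdac9 at 3.03 and 3.37 RPKM, a ratio of 1.11 with an interval that spans 1. Centred by GC content, Hdac5 turned to a log2 ratio of 0.0050. The annotated Hdac4 gene (ENSMUSG00000026313.9) was at 3.35 RPKM (346 reads) in Control and 4.78 RPKM (392 reads) in TRPM2-KD, a ratio of 1.43 (1.23 to 1.66). The second line with that symbol (ENSMUSG00000073617.2) went the other way, at 9.58 RPKM (601 reads) and 6.75 RPKM (336 reads), a ratio of 0.705 (0.615 to 0.807). That identifier was not matched in GENCODE M21, and which transcript it stands for was not analysed here, so neither line alone gives the level of Hdac4. In M21 the annotated Hdac4 gene also shares 22.4% of its exonic bases with the antisense model Gm26720, which had 27 and 21 reads, and Hdac11 shares 17.9% with Gm44002, so their reads are uncertain. Of the remaining enzymes, Hdac6, the tubulin deacetylase, was at 0.957 (0.905 to 1.01), Hdac10 at 1.01 (0.934 to 1.10) and Hdac11, the class IV enzyme, at 0.915 (0.840 to 0.996).

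**Figure D4:**
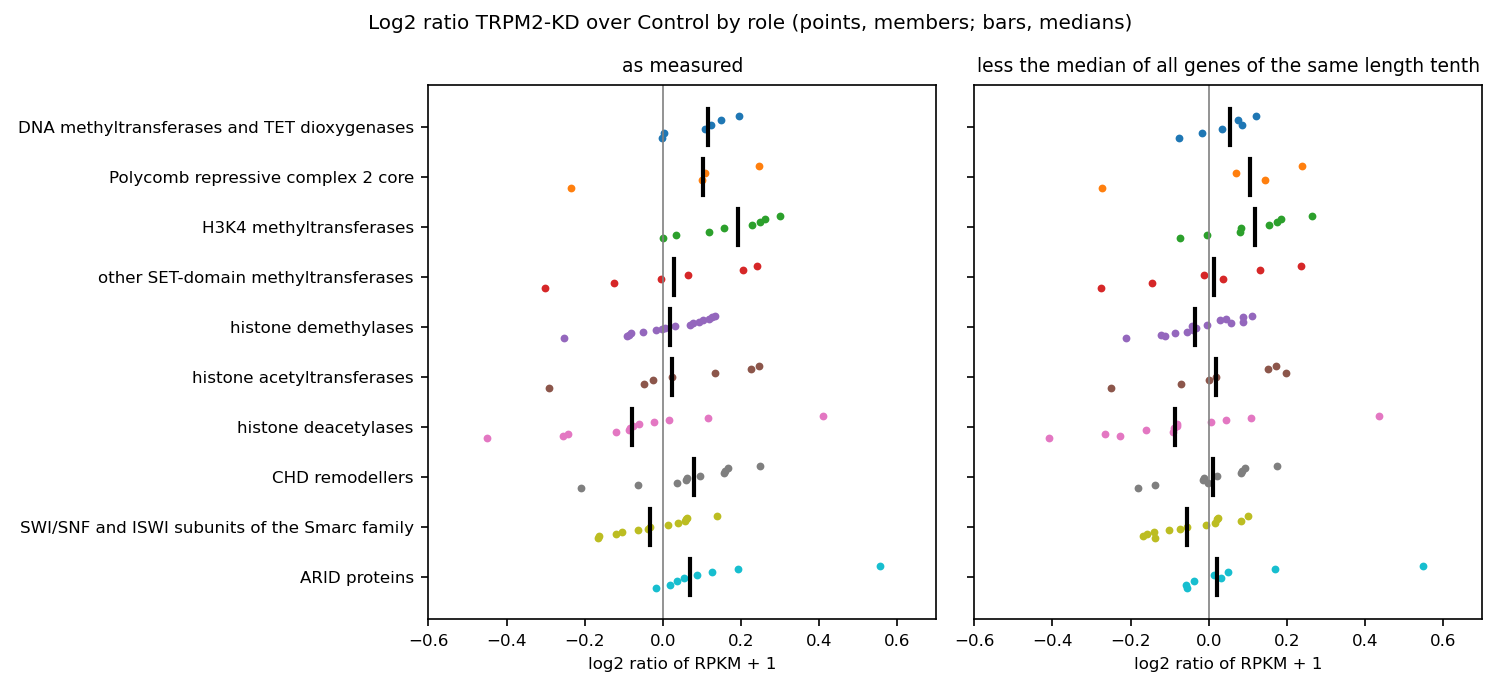
Log2 ratio of RPKM + 1 in TRPM2-KD over Control for each member (points) with the median of each role (black bars), as measured on the left and less the median of all genes in the same length group on the right. H3K4 methyltransferases keep the highest median of the 10 roles (0.19 and 0.12) and deacetylases the lowest (-0.079 and -0.085). On the right the PRC2 core, at 0.11, is close to the highest.

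CHD remodellers were slightly higher, with 8 of 10 intervals above 1 and 1 below, and a median log2 ratio of 0.079. These genes are long, and less the length medians the CHD median was 0.010, with 5 above 0 and 5 below. Chd9 was at 8.86 RPKM in Control (2688 reads) and 10.7 RPKM in TRPM2-KD (2582 reads), a ratio of 1.21 (1.15 to 1.28), the highest of the family. Chd8, a gene known from human autism, was at 23.3 and 26.1 RPKM, a ratio of 1.12 (1.08 to 1.16). Chd7, mutated in human CHARGE syndrome, was at 11.5 and 12.1 RPKM, a ratio of 1.05 (1.00 to 1.10). Chd1, which binds methylated lysine 4, was at 1.14 (1.07 to 1.21), its relative Chd2 at 1.12 (1.08 to 1.17) and Chd6 at 1.08 (1.03 to 1.12). Chd2 shares 19.3% of its exonic bases with another transcript model, so its reads are uncertain. The ATPases of the NuRD complex were the most abundant of the family and the closest to 1. Chd3 was at 180 and 188 RPKM, a ratio of 1.04 (1.03 to 1.06), and Chd4 at 105 and 108 RPKM, a ratio of 1.03 (1.01 to 1.05). Less their length medians Chd3, Chd4 and Chd7 turned to log2 ratios of -0.015, -0.00035 and -0.012. Chd5, the neuronal paralogue, was at 19.4 and 18.5 RPKM, a ratio of 0.955 (0.915 to 0.997). Neuronal markers were lower for 9 of 12, and their part in the ratio of Chd5 was not tested. Chd1l, with 219 and 142 reads, was at 0.817 (0.657 to 1.01).

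The SWI/SNF ATPases were nearly level while several core subunits were slightly lower. Smarca4, the ATPase known as BRG1, was at 85.5 RPKM in Control and 89.1 RPKM in TRPM2-KD, a ratio of 1.04 (1.02 to 1.07). Its alternative Smarca2, known as BRM, was at 33.3 and 32.4 RPKM, a ratio of 0.974 (0.940 to 1.01). Smarca4 exceeded Smarca2 by a quotient of 2.57 in Control and 2.75 in TRPM2-KD. Smarcc2, a scaffold subunit and paralogue of Smarcc1, was the most abundant Smarc gene, at 168 and 164 RPKM. Its ratio of 0.977 (0.958 to 0.997) turned to a log2 ratio of 0.016 when centred by GC content. Smarcc1 was at 46.3 and 48.4 RPKM, a ratio of 1.04 (1.01 to 1.08). The quotient of Smarca4 over Smarca2 was 1.07 times as large in TRPM2-KD (1.03 to 1.12), and that of Smarcc2 over Smarcc1 was 0.935 times as large (0.900 to 0.972), both with approximate counting intervals. Among other pairs examined, the quotient of Arid1a over Arid1b was 0.921 times as large (0.867 to 0.977). Those of Kdm6b over Kdm6a, Hdac2 over Hdac1 and Chd3 over Chd4 did not differ in TRPM2-KD beyond counting error. In the same library 7 of 12 neuronal markers had an interval below 1 and 2 had one above, while of 14 radial glia markers 6 had an interval above 1 and 2 had one below. Their part was not tested.

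Further core subunits were lower. Smarcd1 (ENSMUSG00000023018.4) was at 66.9 RPKM (5538 reads) and 59.5 RPKM (3907 reads), a ratio of 0.889 (0.853 to 0.927), and Smarcd3 was at 38.7 and 34.4 RPKM, a ratio of 0.890 (0.851 to 0.931). Both share exonic bases with antisense genes in M21, 12.7% of Smarcd1 with Gm17349 and 48.2% of Smarcd3 with Chpf2, so their reads are uncertain. The third paralogue, Smarcd2, was at 1.05 (0.939 to 1.16). Smarcb1, a subunit lost in human rhabdoid tumours, was at 18.8 and 17.4 RPKM, a ratio of 0.927 (0.883 to 0.973), and Smarce1, an HMG-box subunit, was at 0.956 (0.924 to 0.990). The ISWI ATPases went apart. Smarca1 was at 7.72 and 8.60 RPKM, a ratio of 1.11 (1.03 to 1.21), and Smarca5 was at 16.5 and 15.1 RPKM, a ratio of 0.915 (0.868 to 0.964), although Smarca5 has several pseudogene copies and its reads are uncertain. Smarcad1 at 1.01 and Smarcal1, a DNA annealing helicase, at 1.03 had intervals that span 1. Over the 13 Smarc genes 3 intervals were above 1 and 6 below, with a median log2 ratio of -0.033, or -0.055 less the length medians. Without the genes that share sequence that median was 0.026.

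Among ARID proteins Arid5b stood alone. Arid5b (ENSMUSG00000019947.9), a DNA-binding partner of the demethylase PHF2, was at 2.205 RPKM (260 reads) in Control and 3.71 RPKM (347 reads) in TRPM2-KD, a ratio of 1.68 (1.43 to 1.98), the highest of all 90 members. Arid4a, a subunit of Sin3 deacetylase complexes, was at 11.8 and 13.6 RPKM, a ratio of 1.15 (1.08 to 1.24), and its paralogue Arid4b was at 1.07 (1.02 to 1.11), which turned to a log2 ratio of -0.013 when centred by length and GC content together. Of the DNA-contacting subunits of BAF, Arid1a did not differ beyond counting error and Arid1b was slightly higher. Arid1a was at 32.6 and 33.0 RPKM, a ratio of 1.01 (0.983 to 1.04), and Arid1b, a gene known from human intellectual disability, was at 9.24 and 10.2 RPKM, a ratio of 1.10 (1.04 to 1.16). Arid2, their counterpart in the PBAF complex, was at 1.03 (0.984 to 1.07), Arid3a at 1.05 (0.936 to 1.17) and Arid3b at 0.981 (0.844 to 1.14). Of the 8 genes 4 had an interval above 1 and none below.

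Partner genes of the same machineries, outside the families above, were mostly near 1 as well. All 8 BAF partners that distinguish progenitors from neurons were measured. Of the progenitor forms, Actl6a was at a ratio of 1.02, Phf10 at 1.04 and Ss18 at 0.956, all with intervals that span 1, and Dpf2 was at 0.923 (0.877 to 0.971). Of the neuronal forms, Actl6b was at 78.3 RPKM in Control and 70.4 RPKM in TRPM2-KD, a ratio of 0.899 (0.856 to 0.943), and Dpf1 was at 62.3 and 55.8 RPKM, a ratio of 0.897 (0.861 to 0.934). Dpf3 at 1.26 (1.07 to 1.47) and Ss18l1 at 1.07 (1.02 to 1.13) were higher, so neither set moved one way. Other BAF and PBAF subunits had 2 intervals above 1 and 2 below out of 9, with Gltscr1 at 1.18, Pbrm1 at 1.16, Bcl7c at 0.856 and Bcl7a at 0.960.

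Partners of the ISWI and INO80 remodellers were higher for 8 of 10 genes, with 7 intervals above 1 and 1 below and a median log2 ratio of 0.14, or 0.088 less the length medians. Srcap, which exchanges the histone variant H2A.Z, was at 12.7 and 15.9 RPKM, a ratio of 1.247 (1.16 to 1.34), while the bromodomain genes Baz1b, Baz2a and Baz2b were at 1.14, 1.14 and 1.15. COMPASS partners were above 0 for 7 of 10, with 4 intervals above 1 and 1 below. Dpy30, a shared COMPASS subunit, was at 42.2 and 32.7 RPKM, a ratio of 0.776 (0.703 to 0.855). Its log2 ratio was -0.36, or -0.30 less its length median. Ash2l was at a ratio of 1.15, Men1 at 1.13 and Hcfc1 at 1.11. Thus not all partners of the H3K4 methyltransferases stood on the same side as the enzymes. NuRD partners held the highest ratio of these lists. Gatad2b was at 13.8 RPKM (689 reads) and 22.4 RPKM (890 reads), a ratio of 1.63 (1.47 to 1.80), and Mbd2 was at 1.34 (1.18 to 1.52), while Mbd3, the alternative to Mbd2 in the complex, was at 106 and 85.9 RPKM, a ratio of 0.808 (0.775 to 0.843), and Mta3 was at 0.919. Over the 7 NuRD partners 2 intervals were above 1 and 1 below.

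Polycomb accessory and PRC1 genes were evenly divided, with 8 intervals above 1 and 8 below out of 22. Pcgf1 was at 7.75 and 11.98 RPKM, a ratio of 1.55 (1.32 to 1.81), and Pcgf5, on 135 and 69 reads, at 0.644 (0.475 to 0.867). Jarid2, which recruits PRC2, was at 1.18 and Cbx8, a reader of the mark it places, at 0.829. Other histone methyltransferases had 6 intervals above 1 and 7 below out of 18. Suv39h2, which methylates lysine 9 in heterochromatin, was at 1.29 (1.14 to 1.46), and Smyd2 at 0.812, Prdm2 at 0.874 and Prmt1 at 0.882 were lower. The list of p300/CBP, sirtuins and co-repressors had 5 intervals above 1 and 4 below out of 12. Within it the NAD-dependent deacetylase Sirt1 was at 4.93 and 6.35 RPKM, a ratio of 1.29 (1.16 to 1.43), Sirt7 at 0.823 (0.754 to 0.898), Rcor1 at 1.23 and Sin3b at 0.870.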

How the data were processed

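The authors deposited 1 table with a read count and an RPKM value per gene for each library, per the file headers. The deposited counts are whole reads and are not normalised. Deposited RPKM equals the count times a constant per gene and library. Deposited with them are the authors' p-value, adjusted p-value and log2 fold change. HTSeq 0.6.0, TopHat2 2.0.12 and Bowtie2 2.2.3 are named with the build mm9, per the submitters' processing notes. The tool behind the p-values, the strand setting and the handling of multiple matches: not given in the sources used here.

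Ratios are TRPM2-KD over Control. Differences were taken on log2(RPKM + 1) where the mean of both libraries reached 1 RPKM. Intervals are Clopper-Pearson 95% intervals of the counts (scipy 1.17.1) and cover counting error only. Their calculation was checked on simulated counts that held counting error alone. That check cannot speak to variation between libraries or to reads made by PCR. Approximate intervals of quotients of genes used the normal approximation on the log scale. With 1 library per group no test was possible, and edgeR 4.0.16 and DESeq2 1.42.0 served only for alternative scaling factors. Gene length was derived from counts and RPKM. GENCODE M21 gave GC content for 15919 identifiers (98.9%), shared exons (at least 10% of exonic bases) and, with BLAST 2.17.0, pseudogene copies (at least 95% identity over 30% of the longest transcript). Such sharing touches 12 members, and M21 may differ from the annotation the authors used. Every member may be named. In each partner list up to 4 genes with the largest absolute log2 ratio are named, and all BAF partners of progenitors and neurons. Members, lists and alternatives were chosen with earlier results of these data known. Alternatives were pseudocounts of 0.1 and 5, other minimum levels, TMM and median-of-ratios scaling, and centring by gene length or GC content.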

Additional observations from a re-analysis of the deposited data

How the results depend on the processing

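TMM and median-of-ratios scaling shifted all log2 ratios by 0.00086 and 0.0018, and under both the counts of members past 25% and with an interval beside 1 stayed within 1.5 times. The counts higher by 25% or lower by 20% rest on few members. With a pseudocount of 0.1 they were 4 higher and 2 lower, with a pseudocount of 5 they were 0 and 0, with a minimum mean of 5 RPKM 0 were higher, and with no minimum 2 were lower. Centring by length left 26 intervals above 1 in place of 40, and turned the log2 ratio of Chd3 to -0.015, Kdm2b to -0.0047, Setd5 to -0.011, Chd7 to -0.012 and Chd4 to -0.00035. The 3 alternatives that follow were chosen after seeing the data. Centring by GC content left 0 members lower by 20% (the second Hdac4 line has no GC value) and turned Hdac5 to 0.0050, Kdm4b to 0.010 and Smarcc2 to 0.016. Centring by length and GC content together also left 0 lower and turned Arid4b to -0.013. Without the 12 members that share sequence and the second Hdac4 line, 1 was higher, 0 were lower and 12 intervals lay below 1. The median log2 ratio of histone acetyltransferases was then 0.13, in place of 0.023. The median over all members was above 0 under each of these alternatives, but some role medians changed sign. That of other SET-domain methyltransferases was -0.0047 with a minimum of 5 RPKM. That of histone demethylases was -0.035 when centred by length and -0.0074 when centred by length and GC content together. The median of the Smarc genes was 0.026 without the genes that share sequence. No paired analysis was possible because each group has 1 library. Depth limits genes with few reads, such as Kdm8, Dnmt3b and Chd1l.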

Other observations

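Arid3c, an AT-rich DNA-binding protein that lies below the level required of members and is named after its values were seen, had 28 reads (0.602 RPKM) in Control and 1 read (0.027 RPKM) in TRPM2-KD, a ratio of 0.045 with a counting interval from 0.0011 to 0.272. For Arid3c the authors' deposited table holds a p of 0.000488, an adjusted p of 0.0702 and a log2 fold change of -4.33, so it passes the study's thresholds on p and fold that no member passed. Arid5a, also below that level, was at a ratio of 1.21 (0.921 to 1.58), from 116 reads in Control and 111 in TRPM2-KD.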
